A study of Hordeum vulgare with 8 samples.

Results

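MLOC_72272.1 is a high confidence (HC) gene of the AL7.1 awn length region of barley (Hordeum vulgare), annotated as protein kinase-3. Every site listed for this transcript in the deposited variant table was taken, whatever its filter state, which gave 14 of the 140560 sites in the table and 1 of its 40344 transcripts. The sites were divided by the allele of the line e35RD, with sites of the reference base in one class and sites of another base in the other.

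RNA came from shoot apices of a pair of near isogenic lines (NILs). They were sampled at Waddington stage 5.5, when the floral organs of the spike are forming. The background of the lines is mostly Morex, but the paper also reports wild barley alleles outside AL7.1. Both lines were grown in a greenhouse with days of 16 h at 22 °C and nights of 8 h at 18 °C. e35RM carries the Morex segment at AL7.1 and has a long awn. e35RD has a short awn and carries a segment of the wild barley line HID382, placed by the submitters between 132.01 and 134.21 cM on the POPSEQ map. Both lines come from 1 NIL pair, each with 4 libraries made from pooled apices, and the authors joined these libraries in 1 column before variant calling. The values therefore have no replicate error, and no test across libraries was possible.

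Protein kinases transfer phosphate from ATP to other proteins. The gene list of the region matches MLOC_72272.1 to cysteine-rich receptor-like kinases (CRKs) of Arabidopsis thaliana. CRKs are membrane proteins of plants, in which an outer part with cysteine-rich repeats is joined to a kinase domain inside the cell. Members of this family in A. thaliana take part in responses to pathogens and to reactive oxygen. An awn is the bristle that extends the lemma, the outer bract of the grass floret, and it starts to grow out at about the stage sampled here.

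The sites below are written as the reference base, the position in the transcript (the 5′ base being 1), and the other base. A24G, G42C, T180C, C255G, C468T, C474G, A612G and A957G were called homozygous for the reference base in e35RD. A93G, G117C, A657G, T873A and C1026T were called homozygous for the other base in e35RD. These were all 13 sites that had passed the filter of the authors. The remaining site, A1037T, had low quality and no call in either line, so it gives no value. The 13 passing sites covered 1002 bases from A24G to C1026T, with gaps of 6 to 216 bases between neighbours. Sites of both classes were interspersed along the transcript, with a longest run of 5 reference sites from T180C to A612G.

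Which line a value belongs to rests on the names of the 2 pooled columns in the variant table. The alleles of the fine-mapped part of the AL7.1 region, which holds MLOC_72272.1, bear on these names. At 93 passing sites of its other transcripts with a homozygous call in e35RD, e35RD had another base and e35RM the reference base at 49 sites in 14 transcripts. The reverse was found at 0 sites. Both lines had another base at 18 sites and the reference base at 12, and e35RM had both bases at 1 site and no call at 13. The calls thus place the non-reference alleles in the column named for e35RD. The depth values come from the same columns, and the expression of MLOC_72272.1 in the single libraries was not analysed here. So the direction of the depth difference holds for the columns as named in this table and has no second measurement here. The study also quantified expression in these lines by a separate route, which may differ in direction for MLOC_72272.1. The direction given here is therefore unresolved. It should not be relied on until it is checked against that quantification.

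Reads of MLOC_72272.1 stood almost entirely in the column named for e35RD. At the 8 sites with the reference base in e35RD, read depth was 24 at A24G, 33 at G42C, 60 at T180C and 53 at C255G in this line. It was 48 at both C468T and C474G, 40 at A612G and 55 at A957G. At the same 8 sites in e35RM, A24G, G42C, T180C, A612G and A957G had 1 read each, C468T and C474G had 2 reads each and C255G had no call. Mean read depth was 45.1 in e35RD and 1.13 in e35RM. The single pooled value of e35RD was the higher one at each of these sites.

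At the 5 sites with another base in e35RD, read depth in this line was 46 at A93G, 49 at G117C, 38 at A657G, 53 at T873A and 8 at C1026T. In e35RM, A93G had 1 read, A657G had 2 reads, and G117C, T873A and C1026T had no call. Mean read depth was 38.8 in e35RD and 0.6 in e35RM, and again the pooled value of e35RD was the higher one at each site.

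**Figure D1:**
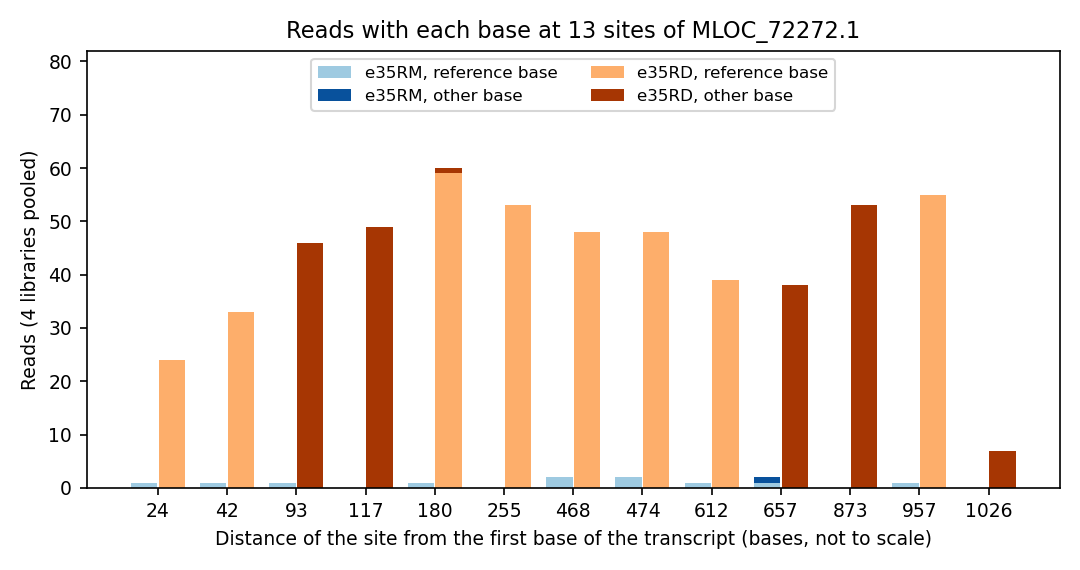
Reads with the reference base and with another base at the 13 passing sites of MLOC_72272.1, for e35RM and e35RD, each with 4 libraries pooled. The x axis gives the distance of each site from the first base of the transcript in bases and the y axis the number of reads. The e35RM bars reach at most 2 reads, and each e35RD bar has nearly a single colour.

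The log2 ratio of mean read depth of e35RM over e35RD was −5.33 at the sites with the reference base in e35RD and −6.01 at those with another base. Depth was thus lower in the e35RM column in both classes, including sites where the e35RD reads matched the reference. The difference between the classes was not tested, since neighbouring sites such as C468T and C474G are covered partly by the same reads. e35RM had a call at 7 of the 8 reference sites and at 2 of the 5 other sites.

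The share of e35RM in the reads of both lines was computed per site with a 95% Clopper-Pearson interval, an exact binomial interval. Intervals cover counting error only. Among sites with a read in e35RM, the share was between 1.64% at T180C and 5% at A657G (0.611 to 16.9%). At A24G it was 4% (0.101 to 20.4%), at A957G 1.79% (0.0452 to 9.55%) and at A93G 2.13% (0.0539 to 11.3%). C468T and C474G each had 4% (0.488 to 13.7%). Equal depth would give 50%, and the upper limit lay under this value at all 13 sites.

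The sites without a call in e35RM were read as 0 reads. The upper limit of the e35RM share was 7.25% at G117C and 6.72% at C255G and at T873A. At C1026T, with 8 reads in e35RD, it was 36.9%. A missing call can also come from reads that the caller did not use. With only the 9 sites called in both lines, the log2 ratio was −5.03.

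**Figure D2:**
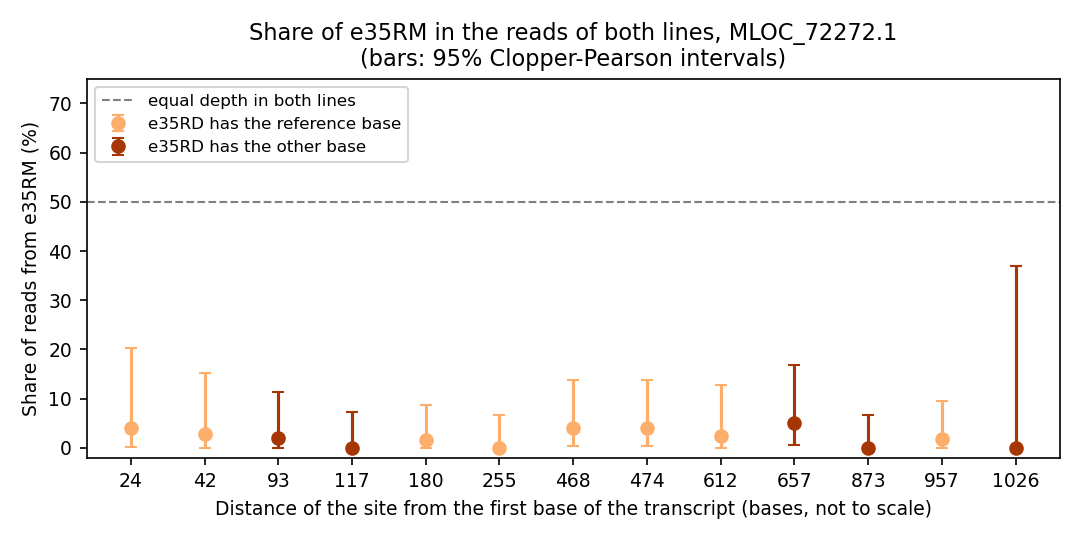
Share of e35RM in the reads of both lines at the 13 passing sites of MLOC_72272.1, in percent, against the distance from the first base of the transcript in bases. Points are coloured by the allele of e35RD, bars are 95% Clopper-Pearson intervals, and the dashed line at 50% marks equal depth. All intervals end below this line, with the highest upper limit at position 1026.

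Within e35RD, depth was not even along the transcript. It rose from 24 reads at A24G to 60 at T180C, lay between 38 and 55 from C255G to A957G, and was 8 at C1026T, 69 bases after A957G. A1037T, 11 bases further, had no call. The depths in e35RM were too low to show such a course. Depth at a site also depends on how reads of each allele align to the reference transcript, and this was not tested.

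The alleles of e35RD were clear at nearly all sites. At the 8 reference sites, 359 reads carried the reference base and 1 read, at T180C, the other base. At the 5 other sites, 193 reads carried the other base and 0 the reference base. These sums count a read once for each site it covers. The genotype quality, a phred-scaled score of the caller that ends at 99, was 99 at 10 of the 13 sites. It was 51 at A24G, 81 at G42C and 12 at C1026T, the sites of lowest depth. The non-reference share in e35RD was 100% at A93G (92.3 to 100%), at G117C (92.7 to 100%), at A657G (90.7 to 100%) and at T873A (93.3 to 100%). At C1026T it was also 100% but rested on 7 reads (59.0 to 100%).

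The alleles of e35RM could be read at few sites and from few reads. Of its 12 read counts summed over the sites, 11 were of the reference base. The exception was A657G, where e35RM had 1 read of each base and was called heterozygous with a quality of 30. Where e35RM was called homozygous, it had the reference base and a quality of 3 or 6. A single reference read, as at A93G, allows a non-reference share of up to 97.5%. So the e35RM allele was undetermined at this depth at the sites where e35RD differed from the reference.

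Opposite homozygous calls were found at 1 of the 8 sites with a homozygous call in each line, A93G, against 2.55% of 44211 such sites in the whole table. This call rested on 1 reference read in e35RM, while e35RD had 46 reads with the other base. Two-sided Fisher's exact tests on the allele depths gave p = 0.0213 at A93G and p = 0.05 at A657G, and p = 1 at the other 7 sites tested. After Benjamini-Hochberg adjustment over 52745 sites with at least 1 read in each line, p was 1 at all 9 sites. None of the 9 was called (0 sites with Fisher's exact test after adjustment, 1 site at an unadjusted p below 0.05), with 0.0948% of all sites tested called. With 1 or 2 reads in e35RM, a site of MLOC_72272.1 could not pass after this adjustment, whatever its alleles. The count of 0 was thus fixed by depth and says nothing of the alleles. No site of MLOC_72272.1 had 5 reads in each line.

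Read against other transcripts, the depth ratio of MLOC_72272.1 lay far from the centre. With 0.5 reads added to each mean, it was −4.92, the 21st lowest of 11112 transcripts whose mean depth reached 10 reads in e35RM or e35RD. Their median was 0 and 95% lay between −0.67 and 0.69. The depth was at least 8-fold lower in e35RM in 56 transcripts (0.504%) and at least 8-fold lower in e35RD in 64 (0.576%). Most of the 56 transcripts were unlike MLOC_72272.1 in their sites. A single site was behind 38 of them, and 52 had no call in e35RM at any site used. The other 4 had at least 1 read in e35RM.

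The transcripts with the nearest ratios were AK249220.1, MLOC_1092.1, MLOC_24643.1 and MLOC_31417.1, each with 1 site, no call in e35RM and 15 reads in e35RD. AK359749 followed, with 1 site and 14 reads in e35RD. Their likeness to MLOC_72272.1 rests on this single ratio, of 2 pooled lines, and on a missing call. In a setting chosen after seeing the data, transcripts with at least 5 sites were taken. Of 2250 such transcripts, 2 were at least 8-fold lower in e35RM, MLOC_72272.1 with 13 sites and MLOC_54434.1 with 6. In another such setting, only sites called in both lines were used, and 3 of 11024 transcripts were at least 8-fold lower. These were MLOC_72272.1 at −4.59 over 9 sites, MLOC_54434.1 at −3.98 over 3 sites and MLOC_34670.3, at the 8-fold limit, over 2 sites, with 0.5 reads added. No count of transcripts lower in e35RD is given for either setting, so these counts have no opposite direction beside them.

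**Figure D3:**
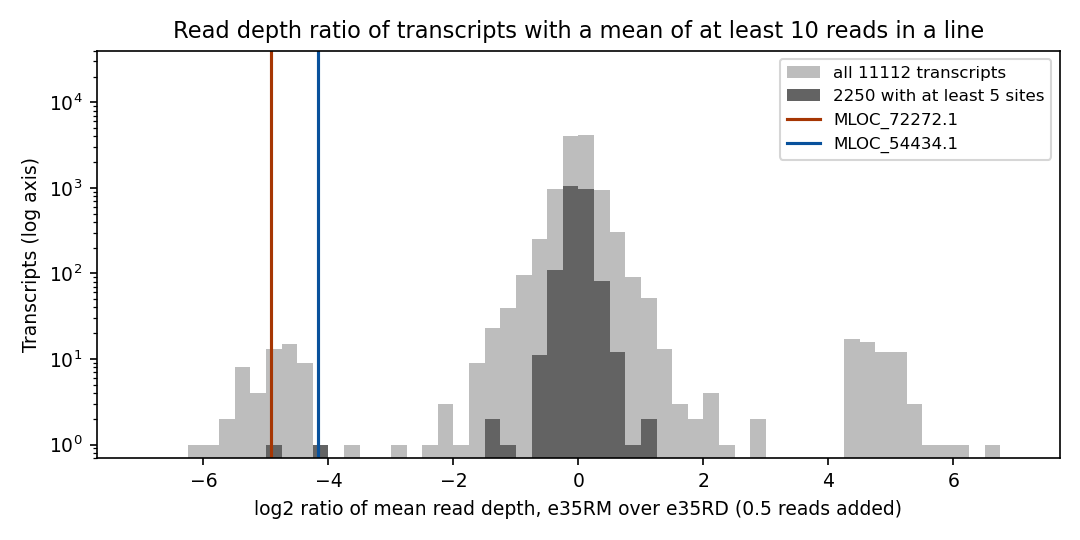
Log2 ratio of mean read depth of e35RM over e35RD, with 0.5 reads added, in 11112 transcripts whose mean depth reached 10 reads in e35RM or e35RD. The y axis is a log axis of the number of transcripts, the dark bars are the 2250 transcripts with at least 5 sites, and the vertical lines mark MLOC_72272.1 and MLOC_54434.1. Among the dark bars, the marked genes are the 2 below −3.

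At least 20 reads in e35RD together with at most 2 in e35RM were found at 31 of 24135 sites with such depth in e35RD (0.128%), in 15 transcripts. Of these 31 sites, 12 were in MLOC_72272.1, which were all of its sites with 20 reads in e35RD, and 3 were in MLOC_54434.1. The 13 other transcripts had 1 or 2 each. In the other direction, 15 of 24122 sites had at least 20 reads in e35RM and at most 2 in e35RD. These counts rest on the column names, and the effect of read alignment on them was not tested. If they reflect transcript amount, fewer cells with the transcript and less transcript per cell cannot be told apart in shoot apices.

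The gene list of the segregating region holds 123 genes, of which 66 lie in the fine-mapped part, and a depth ratio was obtained for 23 and 14 of them. MLOC_72272.1 and MLOC_54434.1, a zinc finger gene, were the 2 with at least 8-fold lower depth in the e35RM column, under the same limit on direction. None of the 23 genes with a ratio was 8-fold lower in e35RD, and the other ratios in the region lay between −0.67 and 0.70. The listed genes without a ratio could not be compared in this way. No sites were listed for the direct neighbours of MLOC_72272.1 in the gene list. These are the low confidence (LC) gene MLOC_72271.1 and MLOC_58753.1, annotated as a polyamine oxidase, an enzyme that breaks down polyamines. For genes with no listed site, absence of the transcript and absence of a variant cannot be told apart.

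Kinase annotation is shared by 4 genes of the list, all in the fine-mapped part. MLOC_58068.1 is an LC gene that is also annotated as a cysteine-rich receptor-like kinase. At its 8 passing sites e35RM had no call, and e35RD had 2 to 6 reads, with a mean of 4.25. Its depth thus pointed the same way as that of MLOC_72272.1, but it stayed under the minimum for a ratio. e35RD had another base at 6 of these sites, G231C, T271G, G294A, T469C, A538G and T708C, with 2 to 6 reads each. It had the reference base at G326A with 6 reads and both bases at T418C, with 2 reads of each. Whether reads of MLOC_72272.1 and MLOC_58068.1 can align to either transcript was not tested, as no transcript sequences were used.

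The other 2 genes differed from MLOC_72272.1. MLOC_69623.1 is an HC gene annotated as a kinase of the phosphatidylinositol kinase-related group. Its read depth was 8 to 26 in e35RM, with a mean of 16.5, and 12 to 25 in e35RD, with a mean of 18.3. At its 10 sites both lines had the same base, other than the reference. MLOC_36654.6, an LC gene annotated as a CAMK-like kinase, a calcium and calmodulin dependent type, was called at 1 passing site, G478C. It had the reference base there with 3 reads in e35RM and 1 read in e35RD.

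**Figure D4:**
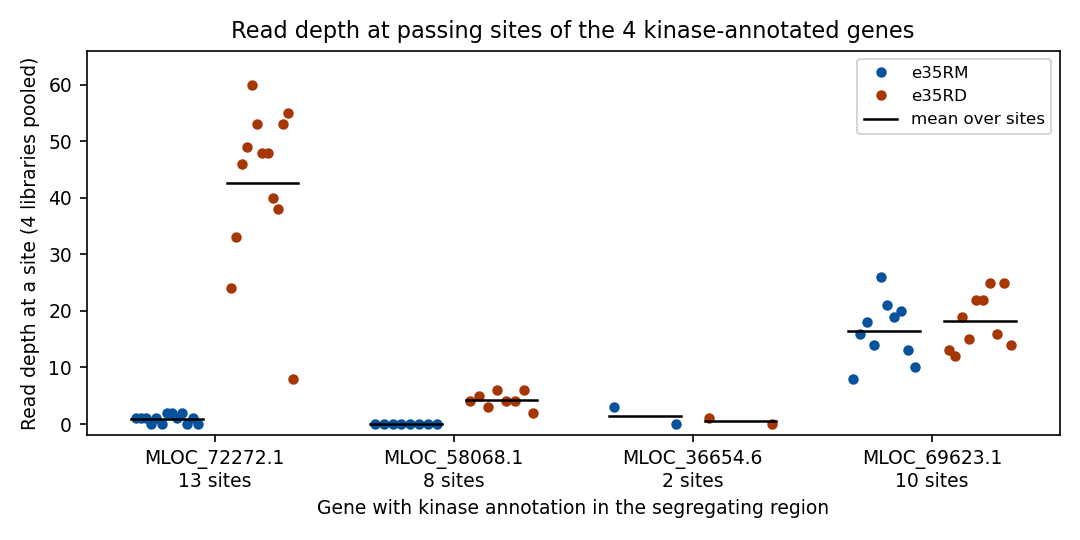
Read depth at each passing site of the 4 kinase-annotated genes of the region in e35RM and e35RD, with 4 libraries pooled per line. Points are sites, sites without a call are drawn at 0, and black lines are means over sites. The lines are apart in MLOC_72272.1 (means 0.923 and 42.7) and overlap in MLOC_69623.1 (16.5 and 18.3).

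MLOC_72272.1 had more sites with the reference base in e35RD than the other transcripts of the fine-mapped part. Of its 13 sites, 8 (61.5%) had the reference base. In the other fine-mapped transcripts this was the case at 13 of 93 homozygous passing sites (14.0%), and in the whole table at 31.7% of 49946. With at least 5 such sites per transcript, it was the only one of 12 fine-mapped transcripts with more reference than other sites, and 9 of the 12 had sites of both classes. Sites of a transcript are linked, so no test was made. At the 13 reference sites of the other transcripts, e35RM had the reference base at 12 and no call at 1. At the 8 of MLOC_72272.1, e35RM had it at 7 and no call at 1. The share thus also depends on which sites were listed. The columns of these lines do not show why sites with the reference base are listed. The table also holds calls of a Morex sample, which bear on this for the 8 reference sites of MLOC_72272.1 and were not used here.

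All 13 passing positions of MLOC_72272.1 were multiples of 3, counted from the first base of the transcript. Among 64921 passing single-nucleotide sites of the table, 48.0% were at such positions, and among those of MLOC transcripts 43.3%. Of 340 MLOC transcripts with at least 10 passing sites, 8 had all of them at multiples of 3, and MLOC_72272.1 was 1 of these. Where a transcript model starts with its coding sequence, these are the third bases of codons, at which many changes leave the amino acid the same. Whether the model of MLOC_72272.1 starts there was not examined. In MLOC_58068.1, 3 of the 8 passing positions were multiples of 3. In MLOC_72272.1, both classes of sites had this position, 8 of 8 with the reference base in e35RD and 5 of 5 with another base. Transitions (A/G or C/T changes) made up 8 of the 13 changes (61.5%), close to the 62.2% over all passing single-nucleotide sites, and the other 5 were transversions.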

How the data were processed

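The authors sequenced RNA of 8 libraries, 4 per line, trimmed the reads with Trimmomatic, used Bowtie2 to align them to barley HC and LC transcripts merged in one set, and removed duplicates with Picard. They called and filtered variants with GATK (UnifiedGenotyper, VariantFiltration). For its own analysis, the paper also required a coverage of more than 4 reads. This minimum was not applied to the calls described here, for which passing means the filter alone. Read depth in the deposited table gives the read count of a line at a site, not normalized, and genotype quality is a phred-scaled score deposited with it. Its 5 columns of a Morex sample belong to none of these libraries and were not used. Calls that a spreadsheet had turned into dates, and allele depths that had lost last zeros, were restored with the help of read depth. Restored allele depths of e35RD summed to the read depth at 11 of the 13 sites. e35RM had 110746 called sites and a summed depth of 2050613, and e35RD 110751 and 2059680, with a median of 10 in both.

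Ratios used passing single-nucleotide sites where e35RM or e35RD had 5 reads or more, with missing calls as 0, and for all transcripts 0.5 reads were added and a mean of 10 reads in a line was required. Depths were not scaled. At each site with at least 1 read in both lines, allele depths were compared with Fisher's exact test (two-sided), and p-values were adjusted over these sites after Benjamini-Hochberg. A call required an adjusted p below 0.05, and non-reference shares up to 0.1 in one line and from 0.9 in the other. These tests compare the sequenced pools, not plants. Gene classes, annotations and order are those of the authors' gene list. Named genes were MLOC_72272.1, its neighbours in the list, the kinase-annotated genes of the region, MLOC_54434.1 and the 5 transcripts nearest in depth ratio; MLOC_34670.3 was added after its values were seen. The gene, the lists and the settings were chosen with earlier results of these data known. Python 3.11.15, SciPy 1.17.1, NumPy 2.4.6 and pandas 2.3.3 were used, and scripts were tested on simulated data.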

Additional observations from a re-analysis of the deposited data

How the results depend on the processing

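No paired analysis was possible because the libraries of each line were pooled before calling, and for the same reason no library could be left out. The log2 depth ratio of MLOC_72272.1 lay between −6.01 and −4.36 in 11 alternatives. All of them use the same 2 pooled columns, so they say nothing of whether the columns carry the right line names, and the direction has no second measurement here. The number of sites with another base in e35RD went from 5 to 4 with at least 10 reads or a genotype quality of at least 20, without C1026T. The 1 site with opposite calls, A93G, was lost with 2 or 5 reads in each line or a genotype quality of at least 20 (0 sites each), since e35RM has 1 read there. The number of transcripts at least 8-fold lower in e35RM, 56, was 240 with a mean depth of at least 5 and 11 with at least 20. It was 3 with only sites called in both lines and 2 with at least 5 sites per transcript, both chosen after seeing the data. The allele depth test with 5 reads in each line could not be run on MLOC_72272.1, which left no site. Other alternatives of this test keep the same few e35RM reads, so their unchanged count is no sign of stability. The other 27 of 34 alternatives moved no count by more than 1.5 times and no ratio beyond the counting interval of the deepest site. This interval, from 1 read in e35RM and 60 in e35RD at T180C, was wide (log2 −11.2 to −3.37). Staying within it is thus a weak criterion. Depth limits the e35RM alleles to 0 to 2 reads per site.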
